A study of Mus musculus with 24 samples.

Results

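The genes described here were the chemokines and chemokine receptors of the mouse dorsal root ganglion (DRG), the cluster of sensory neuron cell bodies beside the spinal cord. They were chosen by symbol, as rows named Ccl, Cxcl, Cx3cl1, Xcl1, Ccr, Ccrl1 or Ccrl2, Cxcr, Cx3cr1 or Xcr1, with a value above 0 in at least 4 of the 24 libraries. The rule gave 62 rows of the 38215 in the table, made of 40 ligands and 22 receptors. A further 3 rows with a matching symbol, all named Ccl21c, were at 0 in every library. Of the 62, 56 (37 ligands and 19 receptors) reached 10 or more estimated reads in 4 or more libraries and entered the tests. Total RNA of whole DRG was sequenced from mice of the strains labelled CAST, DBA and C57, with 4 libraries in each of 6 groups: injured CAST, naive CAST, injured DBA, naive DBA, injured C57 and naive C57. Injured DRG were taken 5 days after a crush of the sciatic nerve, which cuts the peripheral axons of many of these neurons and leaves the ganglion itself untouched. The uninjured groups are labelled naive, while the treatment text of the same samples speaks of sham injury, and they are called naive here. No transgene or other agent is named for any group, and age, sex and the number of mice in a library were not found in the labels. The libraries are described as biological quadruplicates, so the p-values measure the spread between these libraries. The series title names CAST/Ei mice, a wild-derived inbred strain, and regeneration of axons, and the comparisons that follow ask how chemokine genes responded to crush in each strain and where the strains differed.

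Chemokines are small secreted proteins that guide leukocytes along gradients by binding G protein-coupled receptors, and they are named CC, CXC, CX3C or XC after the spacing of their first cysteines. Inflammatory chemokines are induced by injury or cytokines, whereas homeostatic ones such as Ccl19, Ccl21 and Cxcl12 are made constantly and organise lymphoid tissue and stem cell niches. After a peripheral nerve injury, Ccl2 and its receptor Ccr2 are known for bringing monocytes to the nerve and the DRG, where macrophages gather around neuron cell bodies.

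Values are the authors' FPKM, reads scaled to gene length and library size, in which the kilobase term behaved as the full genomic span of a gene with its introns, so that levels of long genes such as Cx3cr1 are low for the reads behind them. Estimated depth was 51.4 to 145.5 mega-reads a library, with 62.9% to 64.8% of them in genes. The lowest depth was that of injured C57 library 3, and the next lowest was 85.6 mega-reads, in naive DBA library 3. Sensory neuron markers summed to 871 to 1040 FPKM in every group, and all 16 on the list were tested; 12, 12 and 10 of them were lower after crush in CAST, DBA and C57. Mean correlation of a library with the others of its group was 0.989 to 0.995, and naive DBA 3, injured C57 3 and naive C57 1 were the lowest of their groups. An added comparison, chosen after seeing the data, left out these 3 libraries and injured DBA 3, which was high in Cxcl9 and Cxcl10. In whole tissue, fewer cells of a type and less RNA per cell cannot be told apart.

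Crush raised more chemokine genes than it lowered in each strain, and 20 of them rose in all 3 strains, among them the ligands Ccl2, Ccl5, Ccl6, Ccl7, Ccl8, Ccl9, Ccl11, Ccl12, Ccl17, Ccl22, Cxcl14 and Cxcl16, and the receptors Ccr1, Ccr2, Ccr4, Ccr7, Cx3cr1, Cxcr3 and Cxcr6. In CAST, 33 of the 56 tested genes rose, which is 58.9%, against 25.6% of all 27278 genes tested, and 9 fell, against a background of 21.4%; without injured CAST library 1 the 9 became 5. In DBA, 31 rose (55.4%, against 26.4% of all genes) and 8 fell (background 23.9%). In C57, 21 rose (37.5%, against 18.6%) and 12 fell (background 20.5%). The 20 genes that rose in every strain are 35.7% of those tested, beside 13.5% of all genes. They include the Cx3cr1 row, whose reads were not separated from those of overlapping genes. The 6 rows that fell in every strain were Ccl1, Ccl21b, Ccl21c, Ccl27a, Ccl27b and 1 of the 2 rows named Ccrl1 (ENSMUSG00000079355), beside 13.9% of all genes. Ccl21b and Ccl21c are copies, as are Ccl27a and Ccl27b, and copies may share reads, so these rows are not all separate results. The median log2 fold change of the 56 genes was 0.39 in CAST, 0.29 in DBA and 0.15 in C57, while that of all genes was 0.0099, 0.0083 and -0.0015. A gene was called where limma's adjusted p was under 0.05, and fold changes are injured minus naive of log2(FPKM + 0.1), so that changes of genes with levels near or under 0.1 FPKM come out too small. Among ligands, 23 rose and 8 fell of 37 in CAST, 21 rose and 6 fell in DBA, and 13 rose and 9 fell in C57. Among receptors, 10 rose and 1 fell of 19 in CAST, 10 rose and 2 fell in DBA, and 8 rose and 3 fell in C57.

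**Figure D1:**
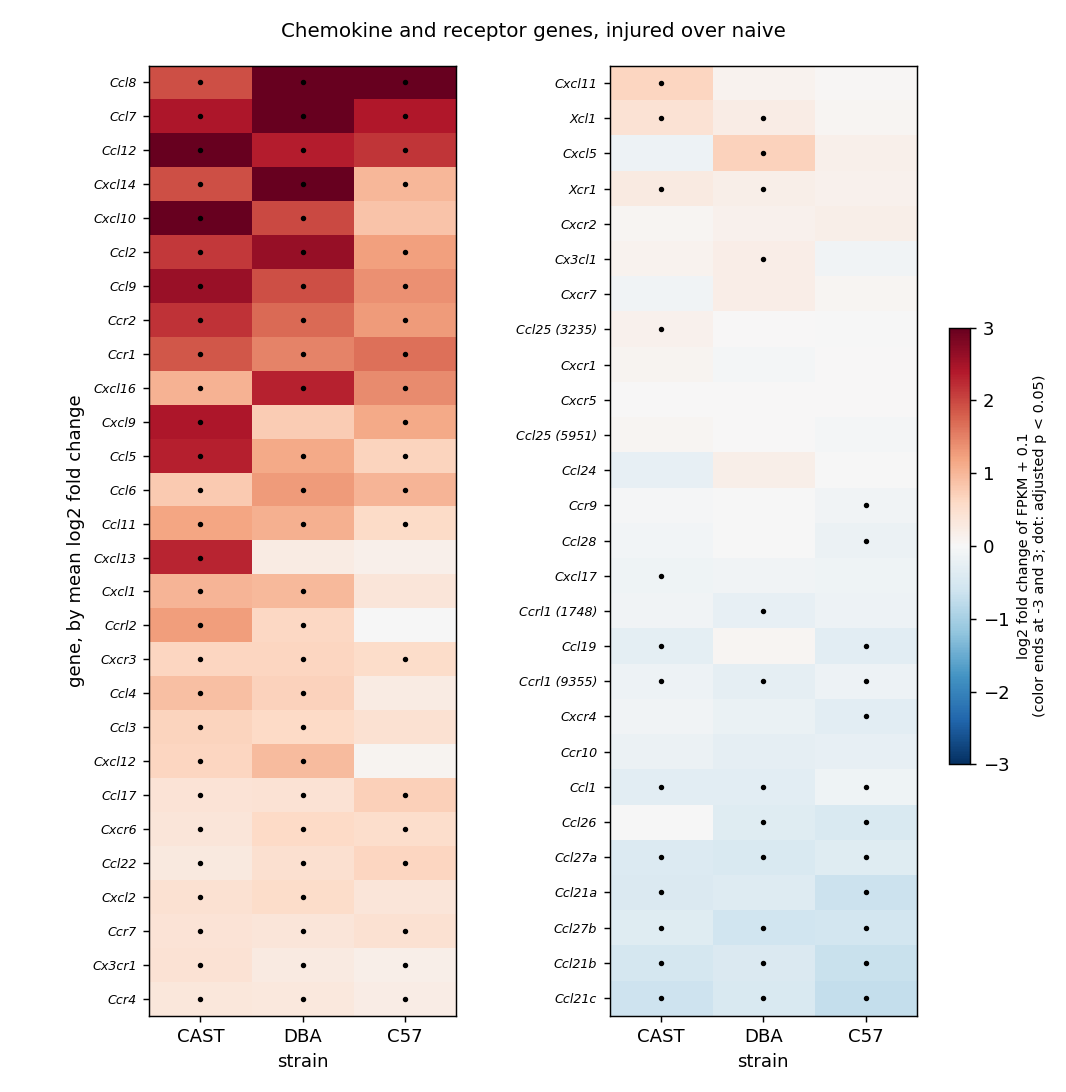
Log2 fold change of FPKM + 0.1, injured over naive, of 55 of the tested genes (rows, ordered by their mean) in CAST, DBA and C57 (columns); red is higher and blue lower after crush, the color ends at -3 and 3, and a dot marks adjusted p under 0.05. The left panel holds the 28 genes with the highest means, from Ccl8 down, and the 6 rows called lower in all 3 strains stand in the right panel.

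Macrophage markers rose alongside, and they are given here because many of these ligands and receptors are made by macrophages. All 19 tested macrophage markers rose in each strain. Their summed FPKM was 62.0 to 84.9 in injured CAST, against 9.34 to 12.4 in naive CAST. It was 66.6 to 79.1 in injured DBA, against 12.2 to 19.7 in naive DBA, and 47.3 to 56.6 in injured C57, against 10.8 to 14.8 in naive C57. Their median log2 fold change was 1.79, 1.66 and 1.37 in CAST, DBA and C57; none of the 19 was at 0 in all libraries, and their part in the chemokine changes was not tested.

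The ligands of Ccr2, which draw monocytes, rose in every strain. Ccl2 lies at chr11:82035571-82037453 on GRCm38, inside the antisense gene Gm17268. In CAST, Ccl2 had 0.734, 0.917, 1.1 and 0.971 FPKM in the injured libraries, against 0.16, 0.136, 0.0989 and 0.146 FPKM in the naive libraries. In DBA, Ccl2 had 2.12, 1.78, 1.56 and 1.84 FPKM in the injured libraries, against 0.214, 0.183, 0.176 and 0.278 FPKM in the naive libraries. In C57, Ccl2 had 0.706, 0.621, 0.653 and 0.848 FPKM in the injured libraries, against 0.243, 0.348, 0.176 and 0.225 FPKM in the naive libraries. All 4 injured libraries lay above all 4 naive ones in each strain, and the injured DBA libraries lay above all injured libraries of the other strains. Ccl2 rose by 2.13 (SE 0.14, adjusted p = 1.6e-10) in CAST, 2.62 (SE 0.14, adjusted p = 5.5e-12) in DBA and 1.23 (SE 0.14, adjusted p = 7.3e-07) in C57. The DBA response exceeded the C57 response by 1.40 (SE 0.20, adjusted p = 1.3e-04) and the CAST response exceeded the C57 response by 0.90 (SE 0.20, adjusted p = 0.0050), while CAST minus DBA was -0.50 (SE 0.20, adjusted p = 0.12). Gm17268, whose reads cannot be told apart from those of Ccl2 without strand, averaged 0.339, 0.658 and 0.255 FPKM in injured CAST, DBA and C57, against 0.0506, 0.077 and 0.0913 in the naive groups.

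In CAST, Ccl7, another monocyte attractant, had 1.06, 1.08, 1.62 and 1.63 FPKM in the injured libraries, against 0.138, 0.164, 0.214 and 0.142 FPKM in the naive libraries. In DBA, Ccl7 had 2.43, 2.53, 1.97 and 2.29 FPKM in the injured libraries, against 0.113, 0.146, 0.348 and 0.126 FPKM in the naive libraries. In C57, Ccl7 had 1.35, 1.29, 1.39 and 1.24 FPKM in the injured libraries, against 0.189, 0.204, 0.18 and 0.102 FPKM in the naive libraries. Injured and naive libraries did not overlap in any strain, and naive DBA library 3 was the highest of its group. Ccl7 rose by 2.43 (SE 0.19, adjusted p = 1.9e-09) in CAST, 3.15 (SE 0.19, adjusted p = 3.2e-11) in DBA and 2.41 (SE 0.19, adjusted p = 3.6e-09) in C57. The test of a difference between strains did not pass for Ccl7, with DBA minus C57 at 0.74 (SE 0.27, adjusted p = 0.11). In CAST, Ccl12, a Ccr2 ligand of the mouse, had 1.32, 1.11, 0.974 and 1.23 FPKM in the injured libraries, against 0.0313, 0.0171, 0.0421 and 0.0186 FPKM in the naive libraries. In DBA, Ccl12 had 1.13, 0.741, 1.29 and 1.1 FPKM in the injured libraries, against 0.10, 0.0923, 0.198 and 0.12 FPKM in the naive libraries. In C57, Ccl12 had 0.534, 0.757, 0.925 and 0.812 FPKM in the injured libraries, against 0.061, 0.154, 0.0599 and 0.103 FPKM in the naive libraries. Injured lay above naive in each strain, every naive CAST library held less Ccl12 than any naive DBA or C57 library, and the injured CAST and DBA groups overlapped. Ccl12 rose by 3.30 (SE 0.18, adjusted p = 6.2e-12) in CAST, 2.35 (SE 0.18, adjusted p = 8.1e-10) in DBA and 2.14 (SE 0.18, adjusted p = 6.7e-09) in C57, and the CAST response exceeded the mean response of DBA and C57 by 1.05 (SE 0.22, adjusted p = 0.0022). With a pseudocount of 1 in place of 0.1 the naive difference of Ccl12, CAST minus C57, was -0.091 (adjusted p = 0.33), and without naive C57 library 2 it was -0.45 (adjusted p = 0.052), beside -0.59 (SE 0.18, adjusted p = 0.011) with all libraries.

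Ccl8, which in the mouse is known as a ligand of Ccr8, lies beside them at chr11:82115185-82116799 and responded less in CAST than in the other strains. In CAST, Ccl8 had 0.811, 0.685, 0.848 and 0.787 FPKM in the injured libraries, against 0.167, 0.0758, 0.154 and 0.142 FPKM in the naive libraries. In DBA, Ccl8 had 7.36, 5.6, 8.2 and 6.2 FPKM in the injured libraries, against 0.0704, 0.0937, 0.246 and 0.12 FPKM in the naive libraries. In C57, Ccl8 had 2.99, 2.65, 3.13 and 2.72 FPKM in the injured libraries, against 0.0516, 0.128, 0.0886 and 0.069 FPKM in the naive libraries. Every injured library lay above every naive one of its strain; among injured libraries all of DBA lay above all of C57, and all of C57 above all of CAST, while the naive groups overlapped. The mean injured level was 0.783 ± 0.0695 FPKM in CAST, 6.84 ± 1.16 in DBA and 2.87 ± 0.227 in C57 (SD, n = 4 each), and the ratio of injured to naive means was 5.82, 51.6 and 34.1. Ccl8 rose by 1.93 (SE 0.18, adjusted p = 2.0e-08) in CAST, 4.94 (SE 0.18, adjusted p = 1.2e-14) in DBA and 4.03 (SE 0.18, adjusted p = 4.4e-13) in C57. The CAST response minus the mean of the other strains was -2.56 (SE 0.22, adjusted p = 6.5e-08). DBA exceeded C57 by 0.91 (SE 0.26, adjusted p = 0.029), a call that was lost when any 1 of 9 of the libraries was left out (values 0.78 to 0.90, adjusted p 0.051 to 0.069: injured DBA 1 and 3, naive DBA 1, 2 and 4, injured C57 2 and 4, naive C57 2 and 3) and with a pseudocount of 0.01 (0.72, adjusted p = 0.36). Ccr8 averaged at most 6.8 estimated reads in any group and did not enter the tests.

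**Figure D2:**
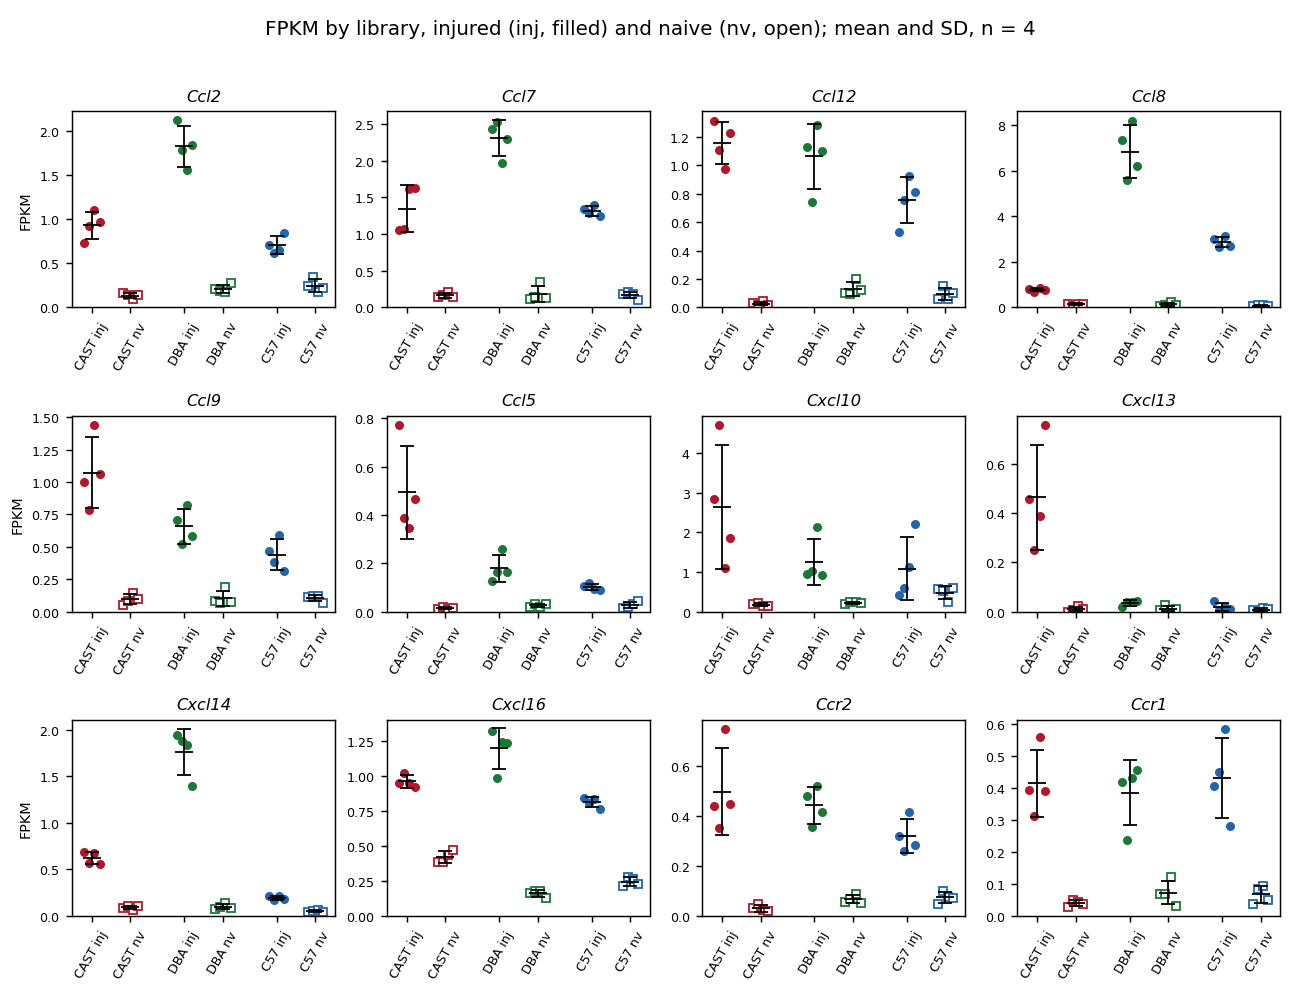
FPKM (vertical axis, linear, from 0) of 12 genes in each library, for injured (filled circles) and naive (open squares) CAST, DBA and C57; bars give the mean and SD of 4 libraries. Injured Ccl8 lay between 5.6 and 8.2 FPKM in DBA and between 0.685 and 0.848 in CAST, and injured Cxcl13 was 0.25 to 0.759 FPKM in CAST, against 0.0171 to 0.0419 in DBA.

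Further inflammatory Ccl ligands, which act on monocytes, macrophages and T cells, formed a second group of raised genes. In CAST, Ccl9, a Ccr1 ligand of the mouse, had 1.0, 0.782, 1.44 and 1.06 FPKM in the injured libraries, against 0.0522, 0.0835, 0.145 and 0.0936 FPKM in the naive libraries. In DBA, Ccl9 had 0.705, 0.523, 0.82 and 0.581 FPKM in the injured libraries, against 0.0784, 0.0664, 0.192 and 0.0745 FPKM in the naive libraries. In C57, Ccl9 had 0.467, 0.384, 0.591 and 0.314 FPKM in the injured libraries, against 0.109, 0.124, 0.118 and 0.0678 FPKM in the naive libraries. No injured library overlapped the naive ones of its strain, and naive DBA library 3 was again the highest of its group. Ccl9 rose by 2.59 (SE 0.20, adjusted p = 1.5e-09) in CAST, 1.92 (SE 0.20, adjusted p = 1.0e-07) in DBA and 1.38 (SE 0.20, adjusted p = 1.4e-05) in C57, and the CAST response exceeded the mean of DBA and C57 by 0.94 (SE 0.25, adjusted p = 0.014). With a pseudocount of 0.01 that difference was 1.11 (adjusted p = 0.059). In CAST, Ccl5, also called RANTES, had 0.773, 0.386, 0.347 and 0.467 FPKM in the injured libraries, against 0.0103, 0.0188, 0.0107 and 0.0146 FPKM in the naive libraries. In DBA, Ccl5 had 0.127, 0.166, 0.26 and 0.162 FPKM in the injured libraries, against 0.0209, 0.0319, 0.0197 and 0.0296 FPKM in the naive libraries. In C57, Ccl5 had 0.106, 0.118, 0.0954 and 0.0893 FPKM in the injured libraries, against 0.016, 0.0205, 0.0329 and 0.0441 FPKM in the naive libraries. Injured CAST libraries lay above all other injured libraries, and naive levels were under 0.05 FPKM in every library. The naive mean of Ccl5 stood for 6.9 estimated reads a library in CAST and the injured mean for 287. Ccl5 rose by 2.33 (SE 0.15, adjusted p = 9.7e-11) in CAST, 1.13 (SE 0.15, adjusted p = 2.8e-06) in DBA and 0.66 (SE 0.15, adjusted p = 0.0016) in C57, and the CAST response exceeded the mean of the others by 1.44 (SE 0.19, adjusted p = 1.2e-05). With a pseudocount of 1 the Ccl5 rise in C57 was 0.10 (adjusted p = 0.16).

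Ccl6, another Ccr1 ligand of the mouse, rose by 0.78 in CAST, 1.28 in DBA and 1.03 in C57 on the log2 scale, to means of 0.138, 0.424 and 0.282 FPKM. Ccl6 lies wholly inside E230016K23Rik on the other strand, which averaged 0.0253, 0.0714 and 0.049 FPKM in injured CAST, DBA and C57, against 0.00988, 0.0212 and 0.0152 in the naive groups, and its part was not tested. Ccl3 and Ccl4, the macrophage inflammatory proteins, rose in CAST (0.66 and 0.91) and DBA (0.60 and 0.68), and were 0.45 and 0.24 in C57, which did not pass; their group means stayed at or under 0.155 FPKM. The Ccl3 call in DBA was lost without injured DBA library 2 (0.47, adjusted p = 0.059) or naive DBA library 1 (0.45, adjusted p = 0.064). The 11 Ccl members of 1 stretch of chromosome 11 (chr11:82035571-83664683, Ccl2 to Ccl4) included 10 that rose in CAST, 10 in DBA and 8 in C57. Of all genes, 25.6%, 26.4% and 18.6% rose in CAST, DBA and C57. Ccl1, the remaining member of that stretch that was called, fell in all 3. Each of these genes is also described singly, so the count is not a separate result.

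Ccr2 and Ccr1, receptors for some of these ligands, rose in each strain as well, while Ccr8 did not enter the tests. In CAST, Ccr2, the monocyte receptor for Ccl2, had 0.441, 0.352, 0.751 and 0.45 FPKM in the injured libraries, against 0.0324, 0.0467, 0.022 and 0.0181 FPKM in the naive libraries. In DBA, Ccr2 had 0.48, 0.355, 0.521 and 0.415 FPKM in the injured libraries, against 0.0563, 0.0668, 0.0886 and 0.0521 FPKM in the naive libraries. In C57, Ccr2 had 0.319, 0.26, 0.415 and 0.284 FPKM in the injured libraries, against 0.049, 0.101, 0.075 and 0.0698 FPKM in the naive libraries. All injured libraries lay above all naive ones, and injured CAST library 3 was the highest of all. Ccr2 rose by 2.17 (SE 0.16, adjusted p = 3.8e-10) in CAST, 1.70 (SE 0.16, adjusted p = 1.1e-08) in DBA and 1.27 (SE 0.16, adjusted p = 1.3e-06) in C57, and the CAST response exceeded the mean of DBA and C57 by 0.68 (SE 0.19, adjusted p = 0.019), which with a pseudocount of 1 was 0.17 (adjusted p = 0.10).

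In CAST, Cx3cr1, the fractalkine receptor of monocytes and resident macrophages, had 0.758, 0.762, 0.795 and 0.763 FPKM in the injured libraries, against 0.533, 0.552, 0.549 and 0.556 FPKM in the naive libraries. In DBA, Cx3cr1 had 0.721, 0.692, 0.688 and 0.705 FPKM in the injured libraries, against 0.562, 0.57, 0.562 and 0.556 FPKM in the naive libraries. In C57, Cx3cr1 had 0.662, 0.659, 0.71 and 0.639 FPKM in the injured libraries, against 0.576, 0.573, 0.562 and 0.583 FPKM in the naive libraries. The groups did not overlap, and 57.4% of the gene's span of 168264 bases is overlapped by other genes, whose reads were not separated from its own. Among them, Csrnp1, which covers 8.0% of the span on the same strand, averaged 3.68, 2.8 and 1.93 FPKM in injured CAST, DBA and C57, against 0.774, 0.722 and 0.61 in the naive groups, and its part in the Cx3cr1 values was not tested. The Cx3cr1 row rose by 0.43 (SE 0.027, adjusted p = 6.8e-11) in CAST, 0.27 (SE 0.027, adjusted p = 3.7e-08) in DBA and 0.19 (SE 0.027, adjusted p = 1.1e-05) in C57. For the Cx3cr1 row the CAST response exceeded the mean of DBA and C57 by 0.19 (SE 0.033, adjusted p = 3.2e-04). Csrnp1 likewise held its highest injured mean in CAST and its lowest in C57. Gorasp1 covers 7.3% of the span on the same strand. It averaged 3.48, 3.17 and 3.2 FPKM in injured CAST, DBA and C57, against 3.56, 3.33 and 3.41 in the naive groups. Whether transcripts of Cx3cr1 itself rose was not tested. Its ligand Cx3cl1, which sensory neurons are known to make, had log2 fold changes of 0.10 in CAST, 0.19 in DBA and -0.11 in C57, with only the DBA value called, and that call was lost without any 1 of 6 libraries (adjusted p 0.054 to 0.066: injured DBA 2, 3 and 4, naive DBA 1, 3 and 4). Ccr1, the receptor of Ccl6 and Ccl9, rose by 1.87 (SE 0.19, adjusted p = 6.9e-08) in CAST, 1.49 (SE 0.19, adjusted p = 1.5e-06) in DBA and 1.66 (SE 0.19, adjusted p = 6.2e-07) in C57, to 0.415, 0.386 and 0.432 FPKM, and its strain differences in response did not pass. In CAST, Ccrl2, a receptor-like protein that binds chemerin, had 0.515, 0.585, 0.344 and 0.203 FPKM in the injured libraries, against 0.103, 0.0934, 0.0736 and 0.164 FPKM in the naive libraries. In DBA, Ccrl2 had 0.419, 0.342, 0.369 and 0.331 FPKM in the injured libraries, against 0.238, 0.202, 0.23 and 0.148 FPKM in the naive libraries. In C57, Ccrl2 had 0.233, 0.158, 0.216 and 0.228 FPKM in the injured libraries, against 0.218, 0.224, 0.18 and 0.214 FPKM in the naive libraries. Injured libraries lay above naive ones in CAST and DBA, and the C57 groups overlapped. Ccrl2 rose by 1.24 (SE 0.19, adjusted p = 1.1e-05) in CAST and 0.62 (SE 0.19, adjusted p = 0.0086) in DBA, and was -0.0058 (SE 0.19, adjusted p = 0.99) in C57, a value whose sign depended on the libraries used. The CAST response of Ccrl2 exceeded the mean of DBA and C57 by 0.94 (SE 0.23, adjusted p = 0.0070).

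Receptors of lymphocytes and dendritic cells were low. Cxcr3, found on T and NK cells, reached 0.109, 0.114 and 0.11 FPKM in injured CAST, DBA and C57, and it rose by 0.64, 0.65 and 0.56 in CAST, DBA and C57, and its strain differences did not pass. Cxcr6, Ccr4 and Ccr7, of T cells and dendritic cells, rose in all 3 strains by 0.22 to 0.60; the Ccr4 call in C57 was lost without injured C57 library 3 (0.16, adjusted p = 0.054). The Cxcr6 span lies wholly inside Fyco1 on the other strand, which averaged 0.168, 0.124 and 0.121 FPKM in injured CAST, DBA and C57, against 0.132, 0.116 and 0.12 in the naive groups. T and NK cell markers were called higher in 14 of 18 in CAST, 8 in DBA and 3 in C57, with 1 lower in C57. Of all genes, 25.6%, 26.4% and 18.6% rose in CAST, DBA and C57, and 21.4%, 23.9% and 20.5% fell. The C57 count of these markers did not stand above the share of all genes. Eomes and Cd8b1 were under the limit on reads. The listed T and NK cell genes summed to 0.601 to 0.974 in injured CAST, against 0.364 to 0.373 in naive CAST FPKM. The sum was 0.441 to 0.715 in injured DBA, against 0.244 to 0.364 in naive DBA, and 0.455 to 0.666 in injured C57, against 0.286 to 0.433 in naive C57. Dendritic cell markers rose in 7, 6 and 6 of 8 in CAST, DBA and C57, with 1 lower in DBA and 1 in C57. Their summed levels were 0.68 to 0.749, 0.985 to 1.17 and 0.735 to 0.837 FPKM in injured groups, against 0.25 to 0.302, 0.485 to 0.576 and 0.356 to 0.514 in naive ones. The part of these cells in the receptor changes was not tested. Ccl17 and Ccl22, the ligands of Ccr4, rose in all 3 strains, by 0.42, 0.42 and 0.71 for Ccl17 and by 0.29, 0.49 and 0.64 for Ccl22. The Ccl17 calls were lost without any 1 of 4 libraries in CAST (adjusted p 0.064 to 0.12: injured CAST 1 and 4, naive CAST 1 and 2) and 5 in DBA (0.053 to 0.13: injured DBA 2 and 3, naive DBA 1, 2 and 4). Xcl1, a T and NK cell product, and its receptor Xcr1, of cross-presenting dendritic cells, rose in CAST (0.43 and 0.26) and DBA (0.22 and 0.18). The Xcl1 call in DBA was lost without any 1 of 4 libraries (adjusted p 0.068 to 0.14: injured DBA 2 and 3, naive DBA 1 and 3).

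The interferon-inducible ligands of Cxcr3, namely Cxcl9, Cxcl10 and Cxcl11, lie next to each other on chromosome 5, and Cxcl13, the ligand of Cxcr5 that draws B cells, lies nearby. Their promoters, with those of Ccl8 and Cxcl14, whose strain differences took other forms, are shown so that the regulatory letters can be read beside the levels. The sequences are the 250 bases before the start of the gene from RefSeq on GRCm38.p6, written 5′ to 3′ on the gene's strand. Capitals mark matches, on either strand, to the core letters of an interferon-stimulated response element (ISRE, GAAANNGAA), to those of a gamma-activated site (GAS, TTCNNNGAA) and to the kappaB consensus, the 3 motifs searched; matches that overlap run together. The windows are chr5:92348890-92349139 on the minus strand for Cxcl10, chr5:92328080-92328329 on the minus strand for Cxcl9, chr5:95956689-95956938 on the plus strand for Cxcl13, chr11:82114935-82115184 on the plus strand for Ccl8 and chr13:56296552-56296801 on the minus strand for Cxcl14.
Cxcl10: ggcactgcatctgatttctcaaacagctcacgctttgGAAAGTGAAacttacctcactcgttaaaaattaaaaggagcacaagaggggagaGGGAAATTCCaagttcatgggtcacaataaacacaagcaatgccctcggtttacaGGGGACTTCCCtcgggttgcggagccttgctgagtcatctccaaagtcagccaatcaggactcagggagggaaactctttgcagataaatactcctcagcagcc
Cxcl9: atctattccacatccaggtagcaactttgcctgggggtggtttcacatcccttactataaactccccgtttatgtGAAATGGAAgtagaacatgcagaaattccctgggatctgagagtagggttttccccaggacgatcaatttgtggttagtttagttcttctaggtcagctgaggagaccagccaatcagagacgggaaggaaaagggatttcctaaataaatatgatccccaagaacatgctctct
Cxcl13: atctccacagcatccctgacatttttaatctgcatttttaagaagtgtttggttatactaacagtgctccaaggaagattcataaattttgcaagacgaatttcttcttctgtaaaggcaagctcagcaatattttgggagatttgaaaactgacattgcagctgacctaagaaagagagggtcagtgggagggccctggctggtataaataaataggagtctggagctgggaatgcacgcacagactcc
Ccl8: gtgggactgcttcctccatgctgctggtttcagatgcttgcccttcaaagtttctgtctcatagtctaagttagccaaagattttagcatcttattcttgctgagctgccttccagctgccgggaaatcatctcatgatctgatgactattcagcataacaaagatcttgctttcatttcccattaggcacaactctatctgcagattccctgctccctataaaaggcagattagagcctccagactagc
Cxcl14: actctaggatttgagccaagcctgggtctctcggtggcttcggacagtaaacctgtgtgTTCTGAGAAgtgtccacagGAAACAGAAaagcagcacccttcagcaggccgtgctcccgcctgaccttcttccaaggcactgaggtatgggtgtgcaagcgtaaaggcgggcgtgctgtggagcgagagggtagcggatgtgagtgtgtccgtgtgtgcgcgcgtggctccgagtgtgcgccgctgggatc

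Cxcl10 held an ISRE match 213 bases before the start and 3 kappaB matches at 159, 104 and 103 bases, of which those at 104 and 103 overlap. Cxcl9 held an ISRE match at 175 bases and Cxcl14 an ISRE match at 172 and a GAS match at 191 bases, while the windows of Cxcl13 and Ccl8 held none of the 3. Of the 43 members matched to the promoter table, 8 (18.6%) held the ISRE letters in a window, 3 (7.0%) the GAS letters and 11 (25.6%) the kappaB motif. Of all 27025 genes in that table, 8.18%, 8.13% and 8.23% held them, and of all 32851 windows of this length 7.13%, 7.02% and 7.25%. The ISRE letters also stood in Ccl1, Ccl3, Ccl19, Ccr2 and Cxcr1, of which Ccl1 fell in every strain and Cxcr1 was called in none. The kappaB motif stood in the Cxcr2 ligands Cxcl1, Cxcl2 and Cxcl3 and in Ccl1, Ccl9, Ccl20, Ccr1, Ccr3, Ccr6, Ccrl2 and Cxcl10. Ccl2, Ccl5, Ccl7, Ccl11, Cxcl5, Cxcl11 and Cxcl16 were among the members with no entry.

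In CAST, Cxcl10 had 2.83, 4.71, 1.11 and 1.85 FPKM in the injured libraries, against 0.193, 0.208, 0.145 and 0.13 FPKM in the naive libraries. In DBA, Cxcl10 had 0.943, 1.02, 2.12 and 0.918 FPKM in the injured libraries, against 0.19, 0.25, 0.244 and 0.217 FPKM in the naive libraries. In C57, Cxcl10 had 0.427, 0.593, 1.13 and 2.2 FPKM in the injured libraries, against 0.564, 0.508, 0.238 and 0.605 FPKM in the naive libraries. All injured CAST and DBA libraries lay above their naive ones, whereas in C57 only injured libraries 3 and 4 did. Cxcl10 rose by 3.17 (SE 0.41, adjusted p = 1.9e-06) in CAST and 1.97 (SE 0.41, adjusted p = 4.2e-04) in DBA, and was 0.85 (SE 0.41, adjusted p = 0.11) in C57. Without injured C57 library 1 the C57 value was 1.17 (adjusted p = 0.035). The CAST response exceeded the mean of DBA and C57 by 1.76 (SE 0.50, adjusted p = 0.023); this call was lost without injured CAST library 1, at 1.66 (adjusted p = 0.053), without injured CAST library 2, at 1.42 (adjusted p = 0.062), and with a pseudocount of 1, at 0.90 (adjusted p = 0.052).

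In CAST, Cxcl9 had 0.765, 0.766, 0.47 and 0.347 FPKM in the injured libraries, against 0.00997, 0.0324, 0.0207 and 0.0269 FPKM in the naive libraries. In DBA, Cxcl9 had 0.0808, 0.0617, 0.605 and 0.0257 FPKM in the injured libraries, against 0.0253, 0.0518, 0.026 and 0.0312 FPKM in the naive libraries. In C57, Cxcl9 had 0.109, 0.13, 0.222 and 0.583 FPKM in the injured libraries, against 0.0309, 0.0244, 0.0666 and 0.0633 FPKM in the naive libraries. In CAST all injured libraries were high, while in DBA only library 3 reached such a level and in C57 library 4 stood above the rest. Cxcl9 rose by 2.44 (SE 0.41, adjusted p = 4.5e-05) in CAST and 1.14 (SE 0.41, adjusted p = 0.031) in C57, and was 0.76 (SE 0.41, adjusted p = 0.13) in DBA. The C57 call was lost without injured library 3 (1.14, adjusted p = 0.054), injured library 4 (0.78, adjusted p = 0.13), naive library 1 (1.09, adjusted p = 0.061) or naive library 2 (1.07, adjusted p = 0.073). In DBA the call was made without injured library 4, at 1.04 (adjusted p = 0.047). CAST minus the mean of DBA and C57 was 1.48 (SE 0.50, adjusted p = 0.054) with all libraries. It passed without injured DBA library 3, at 1.76 (adjusted p = 0.0015), without injured C57 library 4, at 1.67 (adjusted p = 0.017), and without injured CAST library 4, at 1.67 (adjusted p = 0.042). Without the 4 libraries named above it was 1.80 (adjusted p = 0.0049). These omissions cannot decide whether the responses differed. Injured DBA library 3, which is 1 of the 4, and injured C57 library 4 held the highest Cxcl9 of their groups. Injured CAST library 4 held the lowest, so leaving out any of these raises the difference by construction.

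In CAST, Cxcl11 had 0.159, 0.151, 0.109 and 0.0931 FPKM in the injured libraries, against 0.0457, 0.0497, 0.0371 and 0.0483 FPKM in the naive libraries. In DBA, Cxcl11 had 0.0355, 0.0256, 0.0658 and 0.026 FPKM in the injured libraries, against 0.0235, 0.0303, 0.0302 and 0.0291 FPKM in the naive libraries. In C57, Cxcl11 had 0.155, 0.195, 0.193 and 0.184 FPKM in the injured libraries, against 0.191, 0.158, 0.173 and 0.175 FPKM in the naive libraries. In CAST the injured libraries lay apart from the naive ones, in DBA and C57 they overlapped, and every naive C57 library lay above all naive libraries of CAST and DBA. Cxcl11 rose by 0.64 (SE 0.087, adjusted p = 3.5e-06) in CAST and was 0.099 (SE 0.087, adjusted p = 0.38) in DBA and 0.039 (SE 0.087, adjusted p = 0.77) in C57; the CAST response exceeded the mean of the others by 0.57 (SE 0.11, adjusted p = 7.7e-04). GENCODE vM21 gives Cxcl11 the type polymorphic pseudogene. Both Cxcl10 and Cxcl11 lie inside Art3, a gene on the other strand that averaged 0.168, 0.0992 and 0.129 FPKM in injured CAST, DBA and C57, against 0.131, 0.112 and 0.122 in the naive groups, and reads cannot be assigned between them without strand. Gm2673, also on the other strand, covers 26.6% of Cxcl11 and averaged 0.109, 0.0604 and 0.287 FPKM in injured CAST, DBA and C57, against 0.139, 0.0698 and 0.285 in the naive groups; like naive Cxcl11 it was highest in C57, and its part in the Cxcl11 levels was not tested.

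Genes of the interferon response, like these ligands, had their largest rise in CAST. Of 21 listed genes, such as Isg15, Irf7 and Ifit1, 21 rose in CAST, 10 in DBA and 2 in C57, and none fell. Of all genes, 25.6%, 26.4% and 18.6% rose. In 20 of the 21 the CAST response exceeded the mean of the others, against 7.78% of all genes. The median log2 fold change of these 21 genes was 2.59, 0.49 and 0.097 in CAST, DBA and C57. Their summed FPKM was 100.04, 109, 51.5 and 59.6 in the injured CAST libraries, against 8.65, 9.28, 8.52 and 8.12 in the naive ones. In DBA the sums were 15.5, 15.0, 23.4 and 14.2 in injured libraries, against 9.63, 10.2, 10.2 and 10.6 in naive ones. In C57 they were 15.1, 16.7, 18.5 and 23.7 in injured libraries, against 16.5, 15.9, 14.8 and 23.4 in naive ones. Injured DBA library 3 and injured C57 library 4 had the highest sum of their groups as well as the highest Cxcl9 and Cxcl10. The part of this response in the levels of Cxcl9, Cxcl10 and Cxcl11 was not tested, and the list was written with earlier results known.

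**Figure D3:**
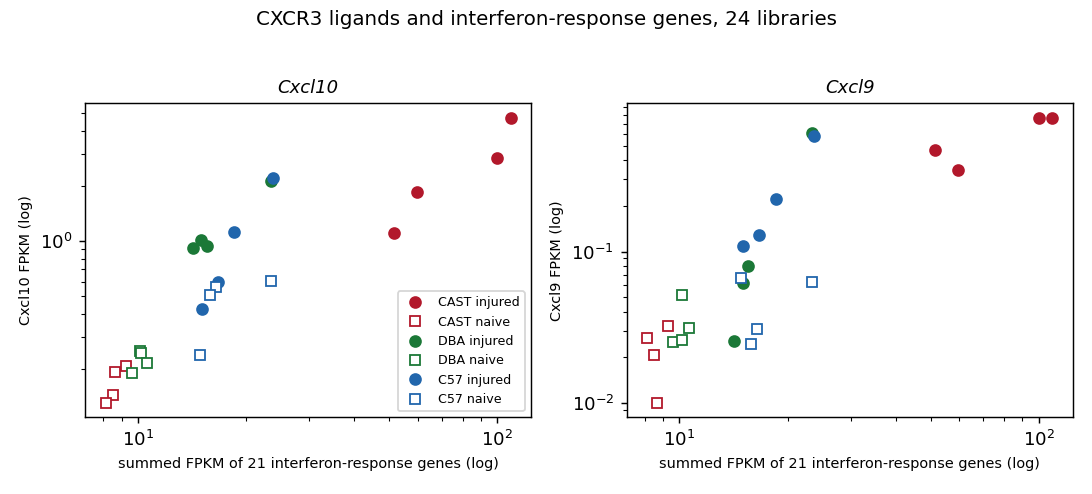
FPKM of Cxcl10 (left) and Cxcl9 (right) against the summed FPKM of 21 interferon-response genes, both axes logarithmic, with 1 point a library (filled circles injured, open squares naive). Injured CAST libraries lie at sums of 51.5 to 109, and injured DBA library 3 and injured C57 library 4 lie above the rest of their groups on both axes.

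In CAST, Cxcl13 had 0.457, 0.25, 0.39 and 0.759 FPKM in the injured libraries, against 0, 0.00845, 0.0216 and 0.00922 FPKM in the naive libraries. In DBA, Cxcl13 had 0.0171, 0.0385, 0.0384 and 0.0419 FPKM in the injured libraries, against 0.0055, 0.0274, 0.00565 and 0.0106 FPKM in the naive libraries. In C57, Cxcl13 had 0.0428, 0.00775, 0.0188 and 0.00867 FPKM in the injured libraries, against 0.00503, 0, 0.0148 and 0.00898 FPKM in the naive libraries. Injured CAST libraries stood far above all others, and the injured and naive groups of DBA and of C57 overlapped. The injured mean stood for 244 estimated reads a library in CAST, 15.4 in DBA and 7.71 in C57. Cxcl13 rose by 2.29 (SE 0.17, adjusted p = 7.0e-10) in CAST and was 0.26 (SE 0.17, adjusted p = 0.23) in DBA and 0.15 (SE 0.17, adjusted p = 0.54) in C57. The CAST response exceeded that of DBA by 2.03 (SE 0.24, adjusted p = 4.7e-06) and that of C57 by 2.14 (SE 0.24, adjusted p = 2.9e-06). With a pseudocount of 0.01 the DBA value was 1.04 (adjusted p = 0.046), and fitted on the DBA libraries alone it was 0.26 (adjusted p = 0.035). The values for its receptor Cxcr5, of B cells, were 0.014 in CAST, 0.0011 in DBA and 0.014 in C57, and none passed. B and plasma cell markers summed to 2.67 to 3.23 in injured CAST, against 0.634 to 0.783 in naive CAST FPKM. They summed to 2.26 to 2.66 in injured DBA, against 0.641 to 0.966 in naive DBA, and 2.19 to 2.64 in injured C57, against 0.657 to 0.80 in naive C57. Of the 6 tested, Sdc1, a proteoglycan of plasma cells that other cells also carry, was the 1 that rose, in every strain, and Cd79a, a part of the B cell receptor, fell in CAST and DBA. Whether these cells contributed to the Cxcl13 difference was not tested.

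Cxcl14, Cxcl16 and Cxcl12 had their largest estimated rise in DBA, as had Ccl2, Ccl7 and Ccl8 above. In CAST, Cxcl14, a broadly conserved chemokine of epithelia and stroma, had 0.683, 0.572, 0.674 and 0.56 FPKM in the injured libraries, against 0.0851, 0.106, 0.0642 and 0.101 FPKM in the naive libraries. In DBA, Cxcl14 had 1.94, 1.87, 1.84 and 1.39 FPKM in the injured libraries, against 0.0777, 0.0933, 0.135 and 0.0856 FPKM in the naive libraries. In C57, Cxcl14 had 0.209, 0.168, 0.209 and 0.183 FPKM in the injured libraries, against 0.0395, 0.0547, 0.0569 and 0.0364 FPKM in the naive libraries. Injured libraries of the 3 strains did not overlap, with DBA above CAST and CAST above C57. Cxcl14 rose by 1.93 (SE 0.10, adjusted p = 4.2e-12) in CAST, 3.23 (SE 0.10, adjusted p = 1.3e-15) in DBA and 0.99 (SE 0.10, adjusted p = 1.4e-07) in C57. The DBA response exceeded that of C57 by 2.24 (SE 0.15, adjusted p = 3.5e-09), the CAST response exceeded that of C57 by 0.94 (SE 0.15, adjusted p = 1.4e-04), and CAST minus DBA was -1.30 (SE 0.15, adjusted p = 2.2e-06). In CAST, Cxcl16, a membrane-bound ligand of Cxcr6, had 0.952, 1.02, 0.947 and 0.917 FPKM in the injured libraries, against 0.385, 0.387, 0.432 and 0.472 FPKM in the naive libraries. In DBA, Cxcl16 had 1.32, 0.988, 1.24 and 1.23 FPKM in the injured libraries, against 0.162, 0.175, 0.178 and 0.126 FPKM in the naive libraries. In C57, Cxcl16 had 0.84, 0.808, 0.835 and 0.766 FPKM in the injured libraries, against 0.209, 0.277, 0.261 and 0.229 FPKM in the naive libraries. In naive DRG all CAST libraries lay above all C57 libraries and these above all DBA libraries, and after crush the injured CAST and DBA groups overlapped. Zmynd15 on the other strand covers 9.2% of the Cxcl16 span and averaged 0.343, 0.195 and 0.222 FPKM in injured CAST, DBA and C57, against 0.366, 0.0411 and 0.113 in the naive groups, in the same naive order of strains, and its part was not tested. Cxcl16 rose by 1.03 (SE 0.082, adjusted p = 1.8e-09) in CAST, 2.31 (SE 0.082, adjusted p = 6.9e-15) in DBA and 1.41 (SE 0.082, adjusted p = 2.5e-11) in C57; the CAST response minus the mean of the others was -0.83 (SE 0.10, adjusted p = 5.4e-06), and DBA exceeded C57 by 0.90 (SE 0.12, adjusted p = 3.1e-05).

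In CAST, Cxcl12, a stromal ligand of Cxcr4 and Cxcr7, had 1.24, 1.6, 1.75 and 1.46 FPKM in the injured libraries, against 1.12, 0.961, 0.775 and 0.86 FPKM in the naive libraries. In DBA, Cxcl12 had 1.28, 1.21, 1.3 and 1.32 FPKM in the injured libraries, against 0.584, 0.622, 0.689 and 0.553 FPKM in the naive libraries. In C57, Cxcl12 had 0.888, 0.843, 0.963 and 0.838 FPKM in the injured libraries, against 0.83, 0.785, 0.748 and 0.948 FPKM in the naive libraries. The injured libraries lay above the naive ones in CAST and DBA and overlapped them in C57. Cxcl12 rose by 0.65 (SE 0.099, adjusted p = 1.5e-05) in CAST and 0.95 (SE 0.099, adjusted p = 7.6e-08) in DBA and was 0.086 (SE 0.099, adjusted p = 0.54) in C57. The responses of DBA and of CAST exceeded that of C57 by 0.87 (SE 0.14, adjusted p = 4.0e-04) and 0.56 (SE 0.14, adjusted p = 0.010). In CAST, Ccl11, the eosinophil attractant eotaxin, had 1.43, 1.35, 1.83 and 1.96 FPKM in the injured libraries, against 0.704, 0.481, 0.758 and 0.732 FPKM in the naive libraries. In DBA, Ccl11 had 2.38, 1.96, 2.43 and 1.85 FPKM in the injured libraries, against 0.855, 0.995, 1.26 and 0.837 FPKM in the naive libraries. In C57, Ccl11 had 1.14, 1.22, 1.22 and 1.03 FPKM in the injured libraries, against 0.763, 0.927, 0.707 and 0.579 FPKM in the naive libraries. Injured libraries lay above naive ones in each strain, and injured DBA libraries held the highest mean. Ccl11 rose by 1.18 (SE 0.15, adjusted p = 1.9e-06) in CAST, 1.06 (SE 0.15, adjusted p = 6.9e-06) in DBA and 0.59 (SE 0.15, adjusted p = 0.0044) in C57, and none of its differences in response between strains passed. Fibroblast markers, which mark cells known to make Cxcl12, Cxcl14 and Ccl11, rose in 7 of 10 in CAST, 8 in DBA and 5 in C57, with summed FPKM of 32.2 to 34.9 in injured CAST, against 13.6 to 18.4 in naive CAST. The fibroblast sums were 39.7 to 45.1 in injured DBA, against 15.2 to 23.4 in naive DBA, and 20.4 to 26.3 in injured C57, against 11.8 to 20.0 in naive C57. Endothelial markers rose in 7 of 12 in CAST, 6 in DBA and 1 in C57, where 1 fell, with summed FPKM of 12.2 to 14.0 in injured CAST, against 9.17 to 11.2 in naive CAST. The endothelial sums were 10.05 to 12.5 in injured DBA, against 8.52 to 10.3 in naive DBA, and 8.33 to 12.7 in injured C57, against 7.46 to 10.5 in naive C57. Mast cell markers rose in 5 of 8 in DBA, such as Cma1 and Tpsb2, and in none in CAST or C57, and 1 fell in each strain. Mast cell sums were 4.6 to 6.44 in injured DBA, against 2.13 to 4.79 in naive DBA, 0.363 to 0.581 in injured CAST, against 0.507 to 0.72 in naive CAST, and 1.39 to 3.48 in injured C57, against 1.39 to 2.19 in naive C57. Of all genes, 25.6%, 26.4% and 18.6% rose in CAST, DBA and C57, and 21.4%, 23.9% and 20.5% fell. The part of these cell types in the changes was not tested.

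Ligands of Cxcr2, which draw neutrophils, were low. In CAST, Cxcl5 had 0.131, 0.0684, 0.0862 and 0.16 FPKM in the injured libraries, against 0.132, 0.165, 0.103 and 0.127 FPKM in the naive libraries. In DBA, Cxcl5 had 0.174, 0.16, 0.241 and 0.257 FPKM in the injured libraries, against 0.0489, 0.13, 0.0803 and 0.106 FPKM in the naive libraries. In C57, Cxcl5 had 0.016, 0.0345, 0.0502 and 0.0231 FPKM in the injured libraries, against 0.0268, 0.0266, 0.0132 and 0.00399 FPKM in the naive libraries. Injured DBA libraries lay above the naive ones, and the groups overlapped in CAST and C57. Cxcl5 rose by 0.69 (SE 0.15, adjusted p = 4.9e-04) in DBA and was -0.15 (SE 0.15, adjusted p = 0.45) in CAST and 0.15 (SE 0.15, adjusted p = 0.45) in C57. CAST minus the mean of the others was -0.57 (SE 0.18, adjusted p = 0.039), a call lost without any 1 of 13 of the 24 libraries (values -0.58 to -0.47, adjusted p 0.051 to 0.099: injured CAST 2 and 3, naive CAST 1, 2 and 4, injured DBA 3 and 4, naive DBA 1 and 3, injured C57 2 and 3, naive C57 3 and 4) and under the replicate block, at -0.57 (adjusted p = 0.055). Cxcl1 rose by 1.02 (SE 0.19, adjusted p = 1.5e-04) in CAST and 0.96 (SE 0.19, adjusted p = 2.4e-04) in DBA, and was 0.37 (SE 0.19, adjusted p = 0.13) in C57, with injured means of 0.194, 0.272 and 0.0812 FPKM. Cxcl2 rose by 0.45 (SE 0.18, adjusted p = 0.049) in CAST and 0.55 (SE 0.18, adjusted p = 0.018) in DBA. It averaged at most 0.0725 FPKM, and its call in CAST was lost without any 1 of 18 libraries, with values of 0.27 to 0.48 (injured CAST 2 and 4, naive CAST 1, 2, 3 and 4, injured DBA 2 and 3, naive DBA 1, 2 and 4, injured C57 1, 3 and 4, naive C57 1, 2, 3 and 4), and that in DBA without any 1 of 3 (injured DBA 1, naive DBA 1 and 4), with values of 0.44 to 0.47. The receptors Cxcr1 and Cxcr2 did not pass in any strain, with values of 0.062, 0.13 and 0.18 for Cxcr2 in CAST, DBA and C57. Of 13 neutrophil markers Ly6g and Csf3r rose in each strain and Cebpe in DBA, and the list had sums of 6.99 to 16.2 in injured CAST, against 5.24 to 10.9 in naive CAST. Neutrophil sums were 7.52 to 29.3 in injured DBA, against 4.91 to 22.3 in naive DBA, and 10.5 to 26.2 in injured C57, against 2.31 to 10.5 in naive C57. Of all genes, 25.6%, 26.4% and 18.6% rose in CAST, DBA and C57. The part of neutrophils was not tested.

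**Figure D4:**
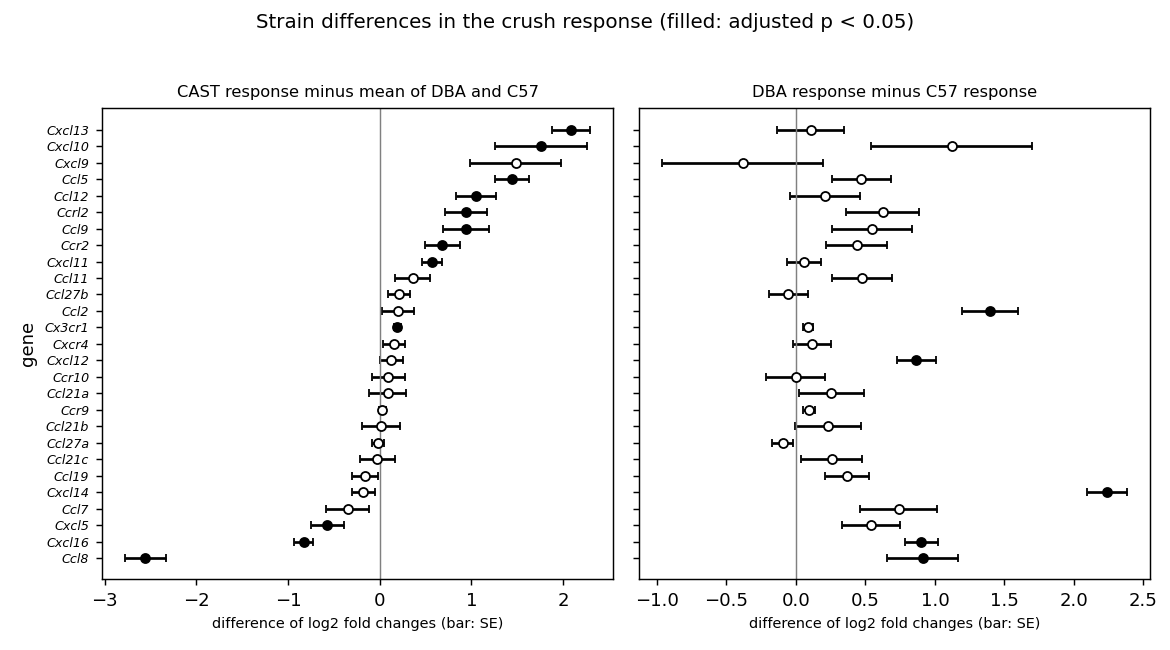
Differences between strains in the log2 response to crush, with SE bars, for the 27 genes whose values are given by library; the left panel is the CAST response minus the mean of DBA and C57, the right panel DBA minus C57, and filled points passed at adjusted p under 0.05. Cxcl13 at 2.09 and Ccl8 at -2.56 stand at the ends of the left panel, and Cxcl14 at 2.24 leads the right one.

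Over all 56 tested genes the CAST response exceeded the mean of DBA and C57 in 10 and fell below it in 4 (17.9% and 7.1%, against 7.78% and 5.99% of all genes). The 10 included Cxcl13, Cxcl10, Ccl5, Ccl12, Ccl9, Ccrl2, Ccr2, Cxcl11 and Cx3cr1, and the 4 were Ccl8, Cxcl16, Cxcl5 and Ccl1. For Cx3cr1 the reads of overlapping genes were not separated. The Ccl1 difference, -0.10 (SE 0.030, adjusted p = 0.027), was lost without injured CAST library 3, at -0.082 (adjusted p = 0.075), without naive CAST library 2, at -0.090 (adjusted p = 0.070), and without naive CAST library 3, at -0.081 (adjusted p = 0.076). Without injured CAST library 3 or naive CAST library 2 the count of genes below was 2. Against DBA alone 6 CAST responses were higher and 4 lower (10.7% and 7.1%, against 7.32% and 6.57% of all genes). Against C57 alone 13 were higher and 4 lower (23.2% and 7.1%, against 7.05% and 4.70%). The 4 below C57 became 2 without any 1 of injured CAST 1 and 4, naive CAST 3 and 4, injured C57 1 and 2, and naive C57 1 and 4. DBA exceeded C57 in 5 (Cxcl14, Ccl2, Ccl8, Cxcl16 and Cxcl12) and was below it in 1, Ccl1 at -0.19 (SE 0.034, adjusted p = 0.0013). These are 8.9% and 1.8% of those tested, beside 4.67% and 3.62% of all genes. Responses of macrophage markers differed in the same comparisons: 10 of 19, such as C1qa and C1qb, exceeded the mean of DBA and C57 in CAST and 2, Cd163 and Mrc1, were below it (median 0.30), and 12 were higher and 2 lower in CAST than in C57. Against DBA alone 6 macrophage markers were higher in CAST and 1 lower, and 4 were higher and none lower in DBA than in C57; their part in the strain differences of chemokine genes was not tested. These comparisons share libraries, with each group entering several of them.

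Copies of Ccl21 and Ccl27 were among the genes that fell after crush. Ccl21, the ligand of Ccr7 made by lymphatic and stromal cells, is present as near-identical copies, so the split of reads between its rows is uncertain, and the handling of reads with several matches is not stated. The row named Ccl21b is called Gm21541 in GENCODE vM21, and the row named Ccl21c is called Ccl21b there. In CAST, Ccl21c had 4.05, 4.59, 4.18 and 4.63 FPKM in the injured libraries, against 7.37, 6.07, 6.16 and 7.36 FPKM in the naive libraries. In DBA, Ccl21c had 1.38, 1.06, 0.914 and 0.989 FPKM in the injured libraries, against 1.83, 0.937, 1.61 and 1.86 FPKM in the naive libraries. In C57, Ccl21c had 3.79, 4.12, 4.41 and 3.97 FPKM in the injured libraries, against 6.02, 6.83, 7.87 and 6.32 FPKM in the naive libraries. Injured libraries lay below naive ones in CAST and C57 and overlapped them in DBA, where both groups were below every library of the other strains. The Ccl21c row changed by -0.61 (SE 0.16, adjusted p = 0.0028) in CAST, -0.45 (SE 0.16, adjusted p = 0.020) in DBA and -0.71 (SE 0.16, adjusted p = 9.8e-04) in C57. Its DBA call was lost without any 1 of 4 DBA libraries (values -0.42 to -0.36, adjusted p 0.052 to 0.078: injured DBA 3 and 4, naive DBA 1 and 4).

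In CAST, Ccl21b had 1.94, 2.97, 2.07 and 2.88 FPKM in the injured libraries, against 4.16, 3.5, 2.87 and 3.78 FPKM in the naive libraries. In DBA, Ccl21b had 1.06, 0.93, 0.809 and 0.726 FPKM in the injured libraries, against 1.38, 0.817, 1.27 and 1.49 FPKM in the naive libraries. In C57, Ccl21b had 2.78, 2.34, 2.56 and 2.57 FPKM in the injured libraries, against 3.92, 4.14, 4.89 and 3.58 FPKM in the naive libraries. In C57 the groups did not overlap, in CAST and DBA they did, and every DBA library lay below every library of the other strains. The row lies wholly inside Gm13307 on the other strand, which averaged 0.18, 0.033 and 0.111 FPKM in injured CAST, DBA and C57, against 0.26, 0.0463 and 0.149 in the naive groups, lowest in DBA as well. The Ccl21b row changed by -0.53 (SE 0.17, adjusted p = 0.012) in CAST, -0.43 (SE 0.17, adjusted p = 0.038) in DBA and -0.66 (SE 0.17, adjusted p = 0.0032) in C57. The CAST call was lost without injured CAST library 1, at -0.43 (adjusted p = 0.053), and the DBA call without any 1 of 5 DBA libraries (adjusted p 0.077 to 0.13: injured DBA 3 and 4, naive DBA 1, 3 and 4) or under the replicate block, at -0.43 (adjusted p = 0.052). In CAST, Ccl21a had 2.01, 2.6, 1.64 and 2.55 FPKM in the injured libraries, against 3.96, 2.32, 2.46 and 3.35 FPKM in the naive libraries. In DBA, Ccl21a had 1.48, 1.21, 1.02 and 0.886 FPKM in the injured libraries, against 1.6, 1.31, 1.57 and 1.6 FPKM in the naive libraries. In C57, Ccl21a had 2.14, 2.3, 1.96 and 2.31 FPKM in the injured libraries, against 3.04, 3.64, 3.79 and 3.39 FPKM in the naive libraries. Every DBA library again lay below all others, and injured and naive overlapped in CAST and DBA. Ccl21a lies wholly inside 4930578G10Rik on the other strand, which averaged 0.0568, 0.0129 and 0.0535 FPKM in injured CAST, DBA and C57, against 0.0803, 0.0146 and 0.0746 in the naive groups, again lowest in DBA; the part of these overlapping genes in the Ccl21 levels was not tested. The log2 fold change of Ccl21a was -0.43 (SE 0.16, adjusted p = 0.038) in CAST, -0.39 (SE 0.16, adjusted p = 0.057) in DBA and -0.65 (SE 0.16, adjusted p = 0.0036) in C57. The CAST call of Ccl21a was lost without any 1 of 4 CAST libraries (values -0.40 to -0.29, adjusted p 0.087 to 0.16: injured CAST 1 and 3, naive CAST 1 and 4).

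Ccl27, the ligand of Ccr10, also has copies, named Ccl27a and Ccl27b, whose reads may be shared. In CAST, Ccl27b had 3.37, 3.2, 3.18 and 3.18 FPKM in the injured libraries, against 4.21, 3.73, 4.05 and 4.75 FPKM in the naive libraries. In DBA, Ccl27b had 1.74, 2.25, 1.66 and 2.04 FPKM in the injured libraries, against 2.88, 3.06, 2.86 and 2.94 FPKM in the naive libraries. In C57, Ccl27b had 2.31, 3.22, 2.29 and 2.59 FPKM in the injured libraries, against 3.59, 4.17, 3.69 and 3.75 FPKM in the naive libraries. Every injured library lay below every naive library of its strain. Ccl27b changed by -0.36 (SE 0.097, adjusted p = 0.0045) in CAST, -0.59 (SE 0.097, adjusted p = 3.0e-05) in DBA and -0.54 (SE 0.097, adjusted p = 1.4e-04) in C57. In CAST, Ccl27a had 0.352, 0.357, 0.344 and 0.353 FPKM in the injured libraries, against 0.509, 0.471, 0.485 and 0.546 FPKM in the naive libraries. In DBA, Ccl27a had 0.372, 0.392, 0.345 and 0.319 FPKM in the injured libraries, against 0.505, 0.537, 0.514 and 0.528 FPKM in the naive libraries. In C57, Ccl27a had 0.326, 0.396, 0.317 and 0.327 FPKM in the injured libraries, against 0.489, 0.465, 0.448 and 0.447 FPKM in the naive libraries. Here too no injured library reached a naive one. Ccl27a changed by -0.42 (SE 0.053, adjusted p = 1.6e-06) in CAST, -0.45 (SE 0.053, adjusted p = 5.3e-07) in DBA and -0.35 (SE 0.053, adjusted p = 1.9e-05) in C57. In CAST, Ccr10 had 0.553, 0.752, 0.581 and 0.483 FPKM in the injured libraries, against 0.636, 0.561, 0.679 and 0.819 FPKM in the naive libraries. In DBA, Ccr10 had 0.557, 0.681, 0.562 and 0.528 FPKM in the injured libraries, against 0.744, 0.80, 0.63 and 0.689 FPKM in the naive libraries. In C57, Ccr10 had 0.594, 0.777, 0.485 and 0.715 FPKM in the injured libraries, against 0.574, 0.867, 0.99 and 0.733 FPKM in the naive libraries. The groups of their receptor Ccr10 overlapped in every strain, and its log2 fold changes of -0.16, -0.26 and -0.26 in CAST, DBA and C57 did not pass. The Ccr10 span lies wholly inside Cntnap1, a gene of the other strand that averaged 6.12, 6.24 and 6.47 FPKM in injured CAST, DBA and C57, against 10.1, 11.1 and 9.998 in the naive groups, and its part in the Ccr10 level was not tested.

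In CAST, Ccl19, the other Ccr7 ligand, had 0.48, 0.508, 0.408 and 0.475 FPKM in the injured libraries, against 0.663, 0.511, 0.599 and 0.595 FPKM in the naive libraries. In DBA, Ccl19 had 0.0921, 0.106, 0.0699 and 0.122 FPKM in the injured libraries, against 0.0981, 0.103, 0.0853 and 0.0685 FPKM in the naive libraries. In C57, Ccl19 had 0.114, 0.146, 0.219 and 0.131 FPKM in the injured libraries, against 0.161, 0.227, 0.212 and 0.243 FPKM in the naive libraries. All CAST libraries lay above all libraries of DBA and C57, and injured lay below naive in CAST without overlap. Ccl19 too lies wholly inside 4930578G10Rik, whose part in its levels was not tested. The log2 fold change of Ccl19 was -0.28 (SE 0.11, adjusted p = 0.047) in CAST, 0.061 (SE 0.11, adjusted p = 0.69) in DBA and -0.31 (SE 0.11, adjusted p = 0.038) in C57; the calls were lost without any 1 of 15 libraries for CAST (values -0.29 to -0.23: injured CAST 1, 3 and 4, naive CAST 1, 3 and 4, injured DBA 1 and 2, naive DBA 1, 2 and 3, injured C57 2 and 4, naive C57 2 and 3) and 6 for C57 (values -0.30 to -0.23: injured C57 1, 2 and 4, naive C57 2, 3 and 4), and both under the replicate block, at -0.28 (adjusted p = 0.066) and -0.31 (adjusted p = 0.055). In CAST, Cxcr4, the receptor of Cxcl12, had 1.39, 1.18, 1.26 and 1.14 FPKM in the injured libraries, against 1.21, 1.67, 1.34 and 1.19 FPKM in the naive libraries. In DBA, Cxcr4 had 1.0, 0.862, 0.849 and 0.856 FPKM in the injured libraries, against 0.935, 0.999, 1.2 and 1.06 FPKM in the naive libraries. In C57, Cxcr4 had 1.45, 1.71, 1.4 and 1.44 FPKM in the injured libraries, against 1.83, 2.16, 1.92 and 1.69 FPKM in the naive libraries. The groups overlapped in each strain, and within each condition every C57 library lay above all libraries of CAST and DBA. The log2 fold change of Cxcr4 was -0.11 (SE 0.099, adjusted p = 0.40) in CAST, -0.21 (SE 0.099, adjusted p = 0.090) in DBA and -0.32 (SE 0.099, adjusted p = 0.013) in C57, a call lost without naive C57 library 2, at -0.26 (adjusted p = 0.055). Cxcr7, the other Cxcl12 receptor, was -0.097, 0.21 and 0.067 in CAST, DBA and C57, and none passed.

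The row of Ccl1, a ligand of Ccr8, fell in all 3 strains. Its means were 0.0107, 0.0109 and 0.0125 FPKM in injured CAST, DBA and C57, against 0.0378, 0.0373 and 0.0224 in naive ones. These low FPKM did not stand for few reads. Naive CAST libraries held 432.8 to 600.6 estimated reads and injured ones 96.29 to 208.8. In DBA the naive libraries held 418.5 to 522.4 and the injured ones 133.5 to 179.2. In C57 they held 248.8 to 329.8 and 92.47 to 216.4. Whether these reads came from Ccl1 transcripts was not tested. Ccl26, an eotaxin, fell in DBA and C57, at -0.37 and -0.45, and was -0.0095 in CAST, where the naive mean was 0.0165 FPKM, against 0.0709 in DBA and 0.106 in C57. In CAST, Ccr9, the receptor of Ccl25, had 0.86, 0.804, 0.837 and 0.886 FPKM in the injured libraries, against 0.858, 0.874, 0.907 and 0.826 FPKM in the naive libraries. In DBA, Ccr9 had 0.894, 0.852, 0.876 and 0.882 FPKM in the injured libraries, against 0.892, 0.90, 0.857 and 0.883 FPKM in the naive libraries. In C57, Ccr9 had 0.849, 0.884, 0.87 and 0.884 FPKM in the injured libraries, against 0.93, 0.973, 0.952 and 0.922 FPKM in the naive libraries. Ccr9 groups overlapped in CAST and DBA, and 52.6% of its span of 105892 bases is overlapped by other genes. Of these, Gm17200 covers 21.4% on the same strand and averaged 5.37, 5.7 and 5.64 FPKM in injured CAST, DBA and C57, against 5.46, 5.69 and 6.02 in the naive groups. Gm10052 covers 0.9% on the other strand and averaged 46.97, 50.39 and 47.76 FPKM in injured CAST, DBA and C57, against 46.68, 46.79 and 48.82 in the naive groups. How much of the Ccr9 row came from these genes was not tested. The log2 fold change of the Ccr9 row was -0.029 (SE 0.031, adjusted p = 0.48) in CAST, -0.011 (SE 0.031, adjusted p = 0.81) in DBA and -0.10 (SE 0.031, adjusted p = 0.011) in C57. The 2 rows named Ccrl1, an atypical receptor that takes up Ccl19, Ccl21 and Ccl25, averaged 0.152 to 0.239 FPKM, and 1 of them (ENSMUSG00000079355, Ackr4 in GENCODE vM21) lies wholly inside Acad11, which averaged 0.319, 0.338 and 0.331 FPKM in injured CAST, DBA and C57, against 0.337, 0.374 and 0.373 in the naive groups. Its fall in C57 was lost without injured C57 library 1, at -0.14 (adjusted p = 0.052). Among Ccl24, the 2 rows of Ccl25, Ccl28 and Cxcl17, whose highest group mean was 0.176 FPKM, calls were made for 1 Ccl25 row (ENSMUSG00000023235, 0.12, lost without any 1 of 6 libraries, at adjusted p 0.056 to 0.096: injured CAST 1, 3 and 4, naive CAST 1, 2 and 4) and Cxcl17 (-0.13, lost without any 1 of 3 libraries, at adjusted p 0.054 to 0.16: injured CAST 1 and 3, naive CAST 3) in CAST and for Ccl28 (-0.17, lost without any 1 of 4 libraries, at adjusted p 0.062 to 0.10: injured C57 2 and 3, naive C57 2 and 3) in C57. Cxcl17 lies wholly inside 4732471J01Rik on the other strand, which averaged 4.18, 4.07 and 3.62 FPKM in injured CAST, DBA and C57, against 2.35, 2.84 and 2.63 in the naive groups. The 6 members outside the tests were Ccl20, Ccr3, Ccr6, Ccr8, Cxcl3 and Cxcl15, whose highest group mean was 7.75 estimated reads, for Ccr3 in injured CAST.

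**Figure D5:**
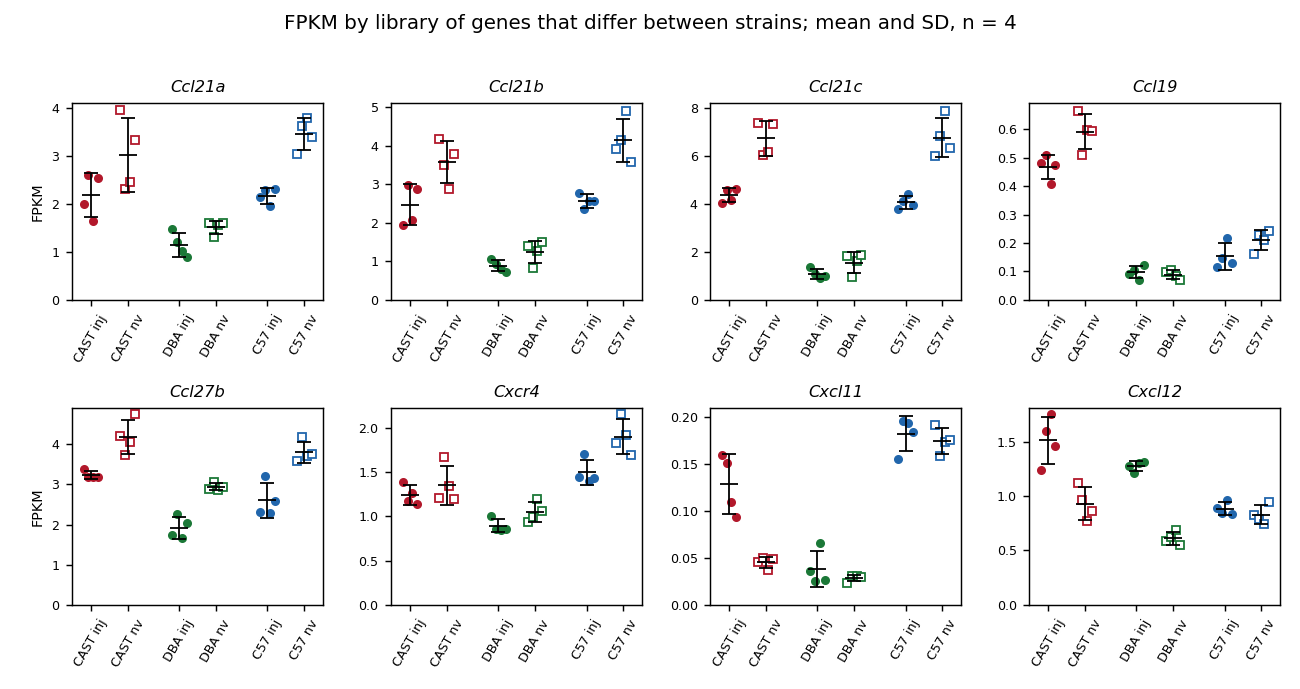
FPKM (vertical axis, linear, from 0) by library of 8 genes that differed between strains in naive or injured DRG; filled circles are injured and open squares naive libraries, and bars give the mean and SD of 4. The 3 Ccl21 rows were lowest in DBA, Ccl19 was highest in CAST, and Cxcl11 and Cxcr4 were highest in C57 among naive libraries.

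Several strain differences were present without injury. In naive DRG, CAST exceeded DBA in 14 of 56 genes (25.0%, against 23.7% of all genes) and was below it in 7 (12.5%, against 20.9%). CAST exceeded C57 in 8 (14.3%, against 24.5%) and was below it in 12 (21.4%, against 20.1%). DBA exceeded C57 in 3 (5.4%, against 11.4%) and was below it in 12 (21.4%, against 10.3%). Only the last of these shares stood well above that of all genes. For each of the 3 Ccl21 rows, every naive DBA library lay below every naive C57 library. These rows are near-identical copies with an uncertain split of reads. The last share may therefore count 1 difference more than once. The count of 7 became 4 without naive CAST library 3 or naive DBA library 3, the 12 genes below C57 in CAST became 7 without naive CAST library 3, and the 3 above C57 in DBA became 5 without injured DBA library 4 or naive DBA library 4. Naive CAST exceeded naive DBA by 2.08 (SE 0.16, adjusted p = 9.7e-10) for the Ccl21c row and by 1.87 (SE 0.11, adjusted p = 3.8e-11) for Ccl19, and naive CAST exceeded naive C57 by 1.16 (SE 0.11, adjusted p = 5.1e-08) for Ccl19. For Ccl21c, naive CAST minus naive C57 was -0.0031 (SE 0.16, adjusted p = 0.99), and naive DBA minus naive C57 was -2.08 (SE 0.16, adjusted p = 2.4e-09). Cxcl11 was lower in naive CAST and naive DBA than in naive C57, at -0.92 (SE 0.087, adjusted p = 3.2e-08) for CAST and -1.09 (SE 0.087, adjusted p = 6.0e-09) for DBA. Cxcr4 too was lower than in naive C57, at -0.47 (SE 0.099, adjusted p = 5.8e-04) for CAST and -0.80 (SE 0.099, adjusted p = 3.0e-06) for DBA. Cxcl5 was 0.132 and 0.0912 FPKM in naive CAST and DBA, against 0.0176 in naive C57, and both differences passed. Reads of CAST and DBA were aligned to a genome of the C57BL/6J strain, and the part of sequence differences in these levels was not tested. Among naive libraries, 12 of the 21 interferon-response genes were lower and 4 higher in CAST than in C57 (median -0.51). In naive DBA 9 of them were lower and 1 higher than in naive C57 (median -0.41), with Cxcl10 at 0.225 FPKM in DBA, against 0.479 in C57, a difference of -0.78 (SE 0.41, adjusted p = 0.21).

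In injured DRG CAST exceeded DBA in 19 genes (33.9%, against 26.4% of all genes) and was below it in 10 (17.9%, against 21.5%). CAST exceeded C57 in 24 (42.9%, against 28.7%) and was below it in 8 (14.3%, against 20.0%). DBA exceeded C57 in 12 (21.4%, against 18.2%) and was below it in 9 (16.1%, against 14.6%). Ccl8 was lower in injured CAST than in the other strains, at -2.96 (SE 0.18, adjusted p = 3.7e-11) against DBA and -1.75 (SE 0.18, adjusted p = 8.9e-08) against C57, and Cxcl13 was higher by 2.0 (SE 0.17, adjusted p = 5.7e-09) and 2.17 (SE 0.17, adjusted p = 1.7e-09). Cxcl14 was higher in injured DBA than in injured C57 by 2.66 (SE 0.10, adjusted p = 6.8e-14), as was Ccl2 by 1.25 (SE 0.14, adjusted p = 8.3e-07). For Ccr1 the injured strains did not pass in any pair, with CAST minus DBA at 0.089 (SE 0.19, adjusted p = 0.74) and CAST minus C57 at -0.036 (SE 0.19, adjusted p = 0.89).

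Other genes of the pathway were followed through lists written with earlier results known. Of 10 chemokines with other symbols and atypical receptors, 4 rose in CAST, 5 in DBA and 4 in C57, and 1 fell in DBA. Of all genes, 25.6%, 26.4% and 18.6% rose in CAST, DBA and C57, and 21.4%, 23.9% and 20.5% fell. The median log2 fold change of the 10 was 0.14, 0.19 and 0.14. Pf4, platelet factor 4, averaged 0.91 ± 0.164 FPKM in injured CAST, against 0.82 ± 0.143 in naive CAST (SD, n = 4 each). In DBA Pf4 averaged 4.26 ± 0.388 FPKM in injured and 1.24 ± 0.363 in naive libraries, and in C57 3.65 ± 0.41 in injured and 1.1 ± 0.048 in naive ones. Pf4 rose by 1.74 (SE 0.16, adjusted p = 8.7e-09) in DBA and 1.64 (SE 0.16, adjusted p = 4.1e-08) in C57, was 0.13 (SE 0.16, adjusted p = 0.53) in CAST, and its CAST response minus the mean of the others was -1.55 (SE 0.19, adjusted p = 6.2e-06). Cd74, the invariant chain and a receptor for Mif, rose by 2.88 (SE 0.15, adjusted p = 2.4e-12) in CAST, 1.51 (SE 0.15, adjusted p = 3.4e-08) in DBA and 1.25 (SE 0.15, adjusted p = 8.0e-07) in C57. Of 25 genes of signalling inside the cell and of shedding, 17 rose and 4 fell in CAST, 18 rose and 4 fell in DBA, and 17 rose and 3 fell in C57. The counts that fell did not stand above the shares of all genes given above. The median of the 25 was 0.24, 0.32 and 0.16. Rac2, a GTPase of leukocyte movement, rose by 1.66 (SE 0.13, adjusted p = 1.6e-09), 1.44 (SE 0.13, adjusted p = 1.1e-08) and 1.11 (SE 0.13, adjusted p = 8.7e-07) in CAST, DBA and C57, and Arrb1, a beta-arrestin, by 1.12 (SE 0.055, adjusted p = 1.3e-12), 0.99 (SE 0.055, adjusted p = 7.2e-12) and 0.70 (SE 0.055, adjusted p = 2.6e-09). Adrbk1, which encodes the receptor kinase GRK2, had log2 fold changes of -0.55 (SE 0.051, adjusted p = 1.6e-08), -0.56 (SE 0.051, adjusted p = 1.0e-08) and -0.34 (SE 0.051, adjusted p = 1.7e-05) in the same order.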

How the data were processed

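RNA of whole DRG from 24 libraries (4 in each of 6 groups) had been sequenced by the authors, who deposited 1 table of FPKM per gene. The submitters' processing notes name the aligner STAR 2.3.0 and the build mm10, a C57BL/6J genome, for all strains, and the effect of this on CAST and DBA was not tested. Which counter and annotation were used, whether strand entered the counts, and how reads with several matches were treated is not given in the sources used here. Values were not counts, so reads were estimated: with length taken as the full genomic span (GENCODE vM21, found for 95.3% of rows), 67.9% of those values that came to 0.5 to 100 reads lay within 0.05 of a whole number, beside 10.0% by chance. This gave 51.4 to 145.5 M reads a library (median 107.1 M). Estimated reads set precision and the filter only; intervals were not drawn from them.

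Genes with 10 or more estimated reads in 4 or more libraries (FPKM of 0.02 where no span was found) were kept, 27278 of 38215. Then limma 3.58.1 (R 4.3.3, statmod 1.5.0) was fitted to log2(FPKM + 0.1), a scale that understates changes of low genes, with 6 group means over all libraries, moderated variances with trend and robust options, and Benjamini-Hochberg adjustment over all tested genes within each comparison; calls had adjusted p under 0.05. The fit was tested on simulated data. Tables and figures were made with Python 3.11.15, pandas 2.3.3, numpy 2.4.6 and matplotlib 3.10.9.

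Members and gene lists were chosen with earlier results of these data known. Values by library are given for members with a mean FPKM of 0.5 or more in any group, and for members whose CAST response differed from the mean of DBA and C57 with a mean of 0.1 or more in any group; others are given by range and count, and lists by at most 5 genes with the largest change. 1 gene that this rule names is not reported here; counts of members and settings include it. Alternatives were pseudocounts of 1 and 0.01, log2(CPM + 0.5), no filter, upper-quartile scaling, plain empirical Bayes variance, replicate number as a block, only the 2 groups of a strain, and leaving out each library. Leaving out 4 libraries together was added after seeing the data.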

Additional observations from a re-analysis of the deposited data

Results flagged for a closer look

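Single libraries stood apart from the other 3 of their group by Dixon's criterion for 11 of 162 groups of values, and chance flags about 1 in 20. Naive DBA library 3 was highest for Ccl7 (0.348 FPKM) and Ccl9 (0.192 FPKM), and injured DBA library 3 for Cxcl10 (2.12 FPKM) and Cxcl9 (0.605 FPKM). Injured DBA library 1 was lowest for Cxcl13 (0.0171 FPKM) and highest for Cxcr4 (1.0 FPKM), while naive DBA library 2 was lowest for Ccl21a (1.31 FPKM). Injured C57 library 2 was highest for Ccl27a (0.396 FPKM) and Cxcr4 (1.71 FPKM). Injured CAST library 1 was highest for Ccl27b (3.37 FPKM) and injured CAST library 3 for Cx3cr1 (0.795 FPKM).

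The response to crush differed between strains by the test of the difference itself for these genes named by library. The log2 response of CAST minus the mean of DBA and C57 was 2.09 for Cxcl13, 1.76 for Cxcl10, 1.44 for Ccl5, 1.05 for Ccl12, 0.94 for Ccl9, 0.94 for Ccrl2, 0.68 for Ccr2, 0.57 for Cxcl11 and 0.19 for Cx3cr1. It was -2.56 for Ccl8, -0.83 for Cxcl16 and -0.57 for Cxcl5. The log2 response of DBA minus that of C57 was 2.24 for Cxcl14, 1.40 for Ccl2, 0.91 for Ccl8, 0.90 for Cxcl16 and 0.87 for Cxcl12. Some of these calls were lost in other settings given above. They include Cxcl10, Ccl9, Ccr2 and Cxcl5 for CAST minus the mean of DBA and C57, and Ccl8 for DBA minus C57. The Cx3cr1 row holds reads that were not separated from those of overlapping genes.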

How the results depend on the processing

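Of 258 tested values of single genes, 60 lost a call in at least 1 of the 33 other settings, 45 of them when 1 library was left out and 20 without the 4 libraries named in the report; 1 value changed sign. That was Ccrl2 after crush in C57, which was 0.078 without injured C57 library 2, and 0.0087, 0.018 and 0.0021 without naive C57 libraries 1, 2 and 4, with a range of -0.052 to 0.078 over all single omissions and no call in any. Counts of members moved by over 1.5 times in these settings only, and the cause was not tested. The 4 CAST responses below the mean of the others became 2 with a pseudocount of 0.01 and 2 with no filter, and ranged from 2 to 5 when single libraries were left out. The 4 CAST responses below DBA became 8 with a pseudocount of 1, and the 4 below C57 became 2 with no filter and 2 to 4 with single libraries left out. In naive DRG, the 7 genes lower in CAST than in DBA became 2 with a pseudocount of 1, 12 with 0.01, 4 without the 4 libraries and 4 to 8 with single omissions. The 12 lower in naive CAST than in naive C57 became 5 with a pseudocount of 1 and 7 to 13 with single omissions. Single omissions gave 5 to 9 genes falling after crush in CAST, and 3 to 5 higher in naive DBA than in naive C57. Libraries of the same number deviated together by r of -0.13 to 0.17 (median 0.018, n = 60 pairs), against -0.20 to 0.24 for different numbers (median -0.0030, n = 180), so the numbers were not taken as pairs. With the replicate block, 33 genes rose and 8 fell in CAST, 31 and 7 in DBA and 22 and 12 in C57, and 7 of the single values lost their call. Genes of few reads are limited by depth: the 6 members outside the tests averaged at most 7.75 estimated reads in any group.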
